A study of Arabidopsis thaliana with 12 samples.

Results

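The genes described are 10 genes of flavonoid synthesis and its control in Arabidopsis thaliana, taken by name from the 27444 protein-coding genes to which the assembled loci were compared by position. They are 8 enzymes of the pathway, CHS (AT5G13930), CHI (AT3G55120), F3H (AT3G51240), TT7 (AT5G07990, flavonoid 3'-hydroxylase), FLS1 (AT5G08640), DFR (AT5G42800), LDOX (AT4G22880) and BAN (AT1G61720), and 2 transcription factors, TT8 (AT4G09820) and MYB12 (AT2G47460). Of the 10 genes, 8 passed the filter on low values and were tested. The other 2, BAN and TT8, are given by their values.

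RNA was sequenced from whole 14-day-old seedlings of 4 genotypes with 3 libraries each: the wild type (WT), the mutants val1 and val2, and the double mutant val1 val2. VAL1 and VAL2 encode related repressors with a plant-specific B3 DNA-binding domain, best known for shutting off the seed maturation programme after germination. All groups were kept in the cold for 3 days at 4 °C (stratification). They were then grown alike on plates with 1% sucrose at 22 °C under 16 h of light a day. The labels name no alleles and no wild-type accession. The comparisons ask which genes differ when 1 of the repressors is mutated and which differ when both are.

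Flavonoids are made from phenylalanine by way of the general phenylpropanoid enzymes. Early enzymes of the flavonoid branch make dihydroflavonols, from which flavonol synthase makes flavonols, the main flavonoids of Arabidopsis leaves and a screen against ultraviolet light, while DFR and LDOX lead to the red and purple anthocyanins. In the seed coat, BAN diverts the same intermediates to the condensed tannins that make seeds brown. MYB12 and its relatives MYB11 and MYB111 activate the early genes and FLS1, and complexes of MYB, bHLH and WD40 proteins, with TT8 as a bHLH member, activate the later genes.

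Values are FPKM, which count fragments per transcript length and per library total, for 19164 to 20293 loci a library. The files give no read counts, so the depth behind each value is unknown. In 2 libraries the locus over the mutated gene VAL1 differed from that in the other libraries of the same labels. It was unbroken in val1 replicate 1 and val1 val2 replicate 3, whereas it was broken or began only inside the gene in the remaining 4 libraries of those labels. The labels give no lesion positions, so whether an unbroken locus departs from the genotype cannot be told. The locus over VAL2 was likewise unbroken in val2 replicate 1 and in val1 val2 replicates 2 and 3 and shortened in the remaining 3 of those labels. VAL1 stood at 14.5, 17.7 and 17.3 FPKM in WT, at 12.7, 5.18 and 5.08 FPKM in val1, at 17.8, 15.2 and 16.4 FPKM in val2, and at 13.2, 11.1 and 22.6 FPKM in val1 val2. VAL2 stood at 21.8, 22 and 17.7 FPKM in WT, at 14.4, 11.1 and 15.2 FPKM in val1, at 9.74, 11.3 and 10.4 FPKM in val2, and at 12.7, 13.2 and 12.6 FPKM in val1 val2. VAL1 lay below the WT range in every val1 library and in val1 val2 replicates 1 and 2, and above it in val1 val2 replicate 3. Its log2 change against WT did not pass in val1 (-1.12, limma adjusted p = 0.0845) or in val1 val2 (-0.13, adjusted p = 0.746). VAL2 fell by 0.90 in val2 (limma adjusted p = 0.00433) and by 0.63 in the double mutant (adjusted p = 0.0021). It also fell in val1, where it is not the mutated gene (-0.57, adjusted p = 0.0424). Groups are named by their labels, and results are given below with and without these libraries. Leaving out all 4 with an unbroken VAL1 or VAL2 locus keeps only replicate 1 of val1 val2. Changes of the double mutant in that setting are therefore given without a p-value. Val1 val2 replicate 3 also stood apart in the flavonoid genes: across the 8 genes with a value in all 3 double mutant libraries and a nonzero level, it was at 35.4% to 102% of the mean of the other 2, with a median of 47.6%, against a median of 109% over 16616 genes. This library also had the highest sums of leaf and root markers of the 3, 4717 and 33.5 FPKM, and MYBL2 (468%), LBD37 (306%) and SNG1 (428%), described below, stood above the mean of the other 2. The part of this in the results was not tested.

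The first step of the branch is made by CHS, chalcone synthase, which joins coumaroyl-CoA with malonyl-CoA. Its locus lay on chromosome 5 between 4488529 and 4490262 (TAIR10). CHS stood at 78.4, 59.9 and 51.6 FPKM in WT, at 21.8, 16.2 and 16.1 FPKM in val1, at 81.3, 67.9 and 60.3 FPKM in val2, and at 217, 234 and 111 FPKM in val1 val2. The val1 libraries lay below all others and the val1 val2 libraries above all others, while the WT and val2 libraries overlapped. In WT, 91.2% of genes had a lower level than CHS, in val1 71.5% and in val1 val2 97.3%.

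**Figure D1:**
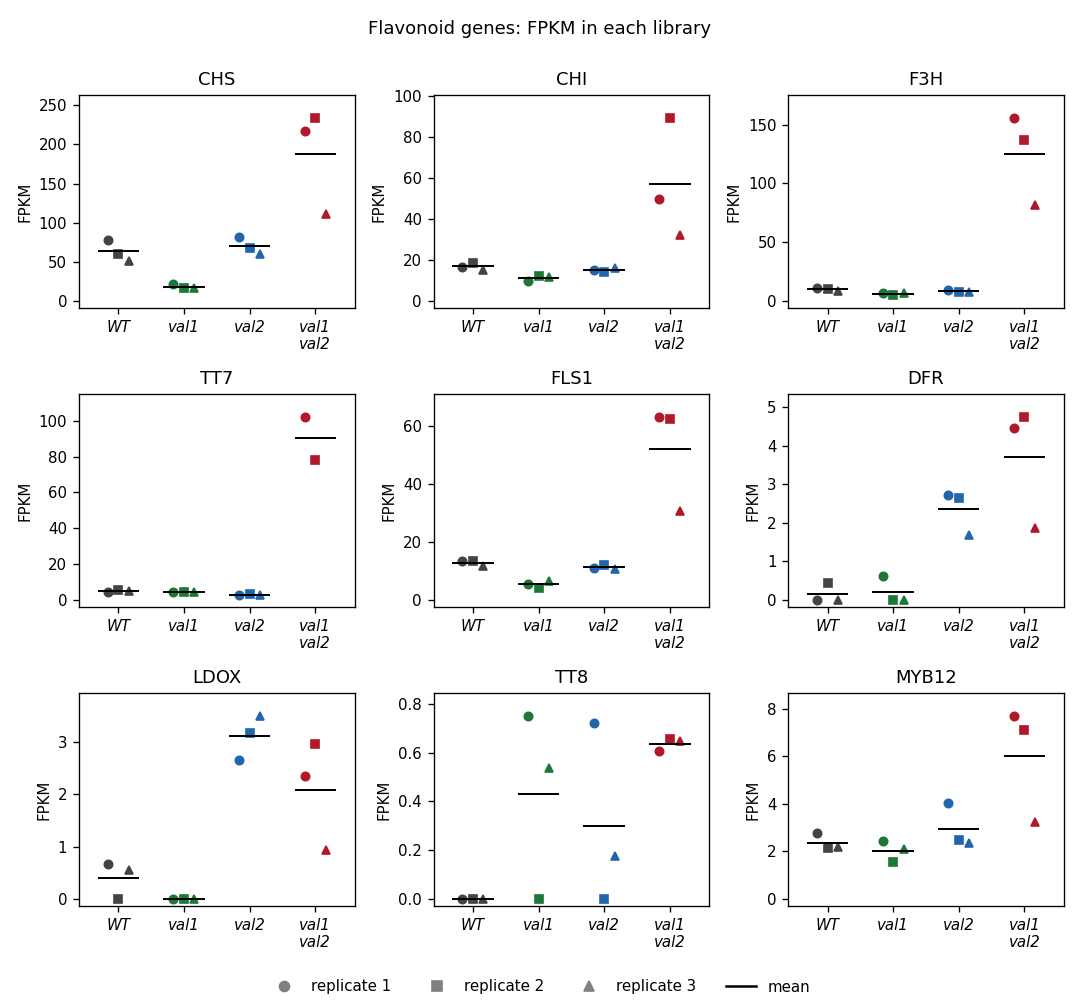
FPKM (vertical axes, linear, a scale for each gene) of 9 flavonoid genes in the 3 libraries of each genotype (horizontal axes), with a point for each library and a line for the group mean. CHS was lowest in val1 (16.1 to 21.8 FPKM), F3H and TT7 stood apart in val1 val2, DFR and LDOX were also above WT in val2, and TT7 has no value in val1 val2 replicate 3.

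CHS fell in val1 to 18.1 ± 3.28 FPKM (SD, n = 3) from 63.3 ± 13.8 FPKM in WT, a log2 change of -1.75 on the FPKM + 1 scale (SE 0.272, limma adjusted p = 0.00466). As seedlings were taken whole, fewer cells of a type and less RNA per cell cannot be told apart, and the same holds for a rise. In val1 val2 it rose to 187 ± 66.9 FPKM, a log2 change against WT of 1.5 (SE 0.272, adjusted p = 0.000763). In val2 the mean was 69.8 ± 10.6 FPKM, and the change of 0.15 did not pass (95% interval -0.45 to 0.75, adjusted p = 0.858). Leaving out the 2 libraries with an unbroken VAL1 locus gave -1.88 in val1 and 1.84 in val1 val2, each still called. Leaving out all 4 with an unbroken locus gave -1.88 and 1.79, the latter from 1 val1 val2 library alone.

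Of the 8 genes tested, CHS and FLS1 were called lower in val1, against 1.71% of the 17881 genes tested, and none was called higher, against 2.18%. The median log2 change of the 8 in val1 was -0.51, against -0.02 over all genes tested. The 8 include DFR and LDOX, which were under 1 FPKM in every WT and val1 library. FLS1, flavonol synthase, is the enzyme that turns dihydroflavonols into flavonols, and its locus lay on chromosome 5 between 2803838 and 2805454. It stood at 13.5, 13.2 and 11.8 FPKM in WT, at 5.34, 4.07 and 6.6 FPKM in val1, at 11, 12 and 10.5 FPKM in val2, and at 63.1, 62.5 and 30.6 FPKM in val1 val2. The val1 libraries were the lowest and the val1 val2 libraries the highest, with no overlap with WT in either case. The fall in val1 was -1.14 (SE 0.249, limma adjusted p = 0.0292). That call was lost on leaving out any WT library or val1 replicate 1 or 2, with adjusted p from 0.057 to 0.114, and held without the 2 libraries with an unbroken VAL1 locus (-1.15, adjusted p = 0.0058).

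CHI, chalcone isomerase, closes the ring of the chalcone, and F3H, flavanone 3-hydroxylase, makes dihydroflavonols from the product. The CHI locus lay on chromosome 3 between 20430114 and 20431597, and that of F3H on chromosome 3 between 19025197 and 19026873. CHI stood at 16.5, 18.5 and 15.2 FPKM in WT, at 9.78, 11.9 and 11.4 FPKM in val1, at 14.9, 13.9 and 16 FPKM in val2, and at 49.8, 89.1 and 32.2 FPKM in val1 val2. F3H stood at 11.2, 10.3 and 8.46 FPKM in WT, at 6.71, 5.22 and 6.37 FPKM in val1, at 9.43, 7.26 and 7.36 FPKM in val2, and at 156, 137 and 81.6 FPKM in val1 val2. For both genes every val1 library lay below every WT library and every val1 val2 library above all others. The val1 changes of -0.56 for CHI (95% interval -1.17 to 0.06, limma adjusted p = 0.339) and -0.63 for F3H (-1.11 to -0.14, adjusted p = 0.167) did not pass the threshold over all genes. The CHI change passed when only WT and val1 were fitted (adjusted p = 0.0446). The F3H change passed without val1 val2 replicate 3 (-0.63, adjusted p = 0.0258) and without the 2 libraries with an unbroken VAL1 locus (-0.69, adjusted p = 0.0428). An annotated RNA gene, AT3G51238, overlaps F3H and the files give no strand, so reads of the 2 cannot be told apart.

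TT7 adds a hydroxyl group to the flavonoid B ring, which separates the quercetin from the kaempferol branch. Its locus lay on chromosome 5 between 2560245 and 2563027 in 11 libraries, and in val1 val2 replicate 3 a single locus also spanned the neighbouring gene AT5G08000, so that library gives no value. TT7 stood at 4.26, 5.63 and 4.98 FPKM in WT, at 4.2, 4.46 and 4.19 FPKM in val1, at 2.56, 3.09 and 2.74 FPKM in val2, and at 102 and 78 FPKM in val1 val2. The val2 libraries lay below every WT and val1 library, and both val1 val2 libraries with a value lay far above all others.

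In the double mutant all 8 genes tested were called higher than in WT, against 24.5% of all genes tested, and none lower, against 34.4%. The median log2 change of the 8 was 1.73, against -0.14 over all genes tested. Of these 8, 6 were at 1 FPKM or more in every library with a value, and all 6 were called higher. DFR and LDOX passed the filter through val2 and val1 val2 alone, so nothing is read from their count or from their part in the median. The log2 changes of the other 6 ran from 1.00 for MYB12 to 3.93 for TT7. TT7 rose to 90.1 ± 17.1 FPKM (SD, n = 2) from 4.95 ± 0.688 FPKM, an 18.2-fold ratio of mean FPKM and a log2 change of 3.93 (SE 0.151, limma adjusted p = 2.54e-08). F3H rose to 125 ± 38.5 FPKM from 9.99 ± 1.38 FPKM, a 12.5-fold ratio and a log2 change of 3.47 (SE 0.22, adjusted p = 3.76e-07). F3H thereby stood above 95.8% of genes in val1 val2 and above 59.4% in WT.

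FLS1 rose 4.05-fold in val1 val2, to 52 ± 18.6 from 12.8 ± 0.923 FPKM (log2 change 1.87, SE 0.249, limma adjusted p = 9.42e-05). CHI rose 3.41-fold, to 57.1 ± 29.1 from 16.7 ± 1.68 FPKM (log2 change 1.60, SE 0.278, adjusted p = 0.000583), and CHS rose 2.96-fold. Without the 2 libraries with an unbroken VAL1 locus the log2 changes in val1 val2 were 1.94 for CHI, 3.75 for F3H and 2.21 for FLS1. TT7 has no value in val1 val2 replicate 3, so its change against WT could not move in that setting. The file values are shares of each library, and scaling by median ratios moved the median over all genes in val1 val2 from -0.14 to 0.03 and the share of called genes that were higher from 41.6% to 52.6%. All 8 flavonoid genes stayed called higher under that scaling, with log2 changes from 1.16 to 4.17.

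**Figure D2:**
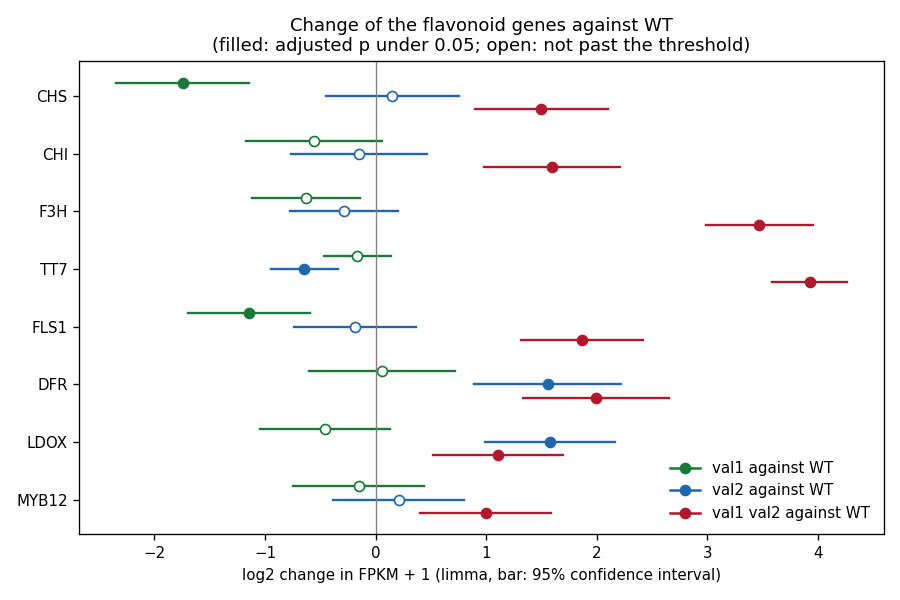
log2 change in FPKM + 1 against WT (horizontal axis) of the 8 genes tested in val1, val2 and val1 val2, with 95% confidence intervals as bars and filled points for an adjusted p under 0.05. The val1 val2 changes run from 1.00 for MYB12 to 3.93 for TT7, CHS and FLS1 lie below 0 in val1, and DFR and LDOX lie above 0 in val2. The 3 comparisons share the WT libraries.

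Marker genes of organs moved with these results in the double mutant. The summed level of 5 leaf mesophyll markers was 11098.7 to 12475.5 FPKM in WT and 1397 to 4717 FPKM in val1 val2, where 3 of the 4 tested were called lower. All 5 root markers were called lower, with sums of 91.3 to 100.4 FPKM in WT and 18.7 to 33.5 FPKM in val1 val2. Over all genes tested, 34.4% were called lower there. The 6 embryo or mature seed markers were at 0 in every WT library and summed to 24865 to 54776 FPKM in val1 val2. The lowest of these sums lacks a value for SESA3. All 6 were called higher there, but they passed the filter only through mutant libraries. LEC1, ABI3 and FUS3 passed it through val1 val2 alone, so nothing is read from this count. The part of these shifts in the flavonoid results was not tested. Of 6 seed coat markers, all were at 0 in val1 and in val1 val2, and the sum reached at most 0.471 FPKM in WT.

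Set against val1, all 8 genes tested were higher in val1 val2, where 25.6% of all genes were called higher and 32.6% lower. These include all 6 genes at 1 FPKM or more in every library with a value. DFR and LDOX passed the filter only through val2 and val1 val2, so nothing is read from their count. Here CHS differed 10.4-fold (log2 change 3.25, limma adjusted p = 3.52e-06), F3H 20.4-fold, TT7 21-fold and FLS1 9.75-fold. Set against val2, 6 of the 8 were higher, where 24.9% of all genes were called higher and 34.8% lower, with ratios of 15.6 for F3H and 32.2 for TT7. The 2 exceptions were DFR and LDOX.

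The changes in the single mutants did not add up to that in the double mutant for 5 enzymes. The interaction, the val1 val2 change minus the sum of both single changes, was called above 0 for 5 of the 8 genes and below 0 for none, against 21.2% and 25.4% of all genes tested. It was 4.74 for TT7 (SE 0.203, limma adjusted p = 1.48e-07), 4.39 for F3H (SE 0.311, adjusted p = 2.04e-06), 3.20 for FLS1 (SE 0.353, adjusted p = 4.7e-05), 3.10 for CHS (SE 0.385, adjusted p = 0.000108) and 2.31 for CHI (SE 0.393, adjusted p = 0.000833). For CHS and FLS1 the sign differed between the genotypes, with both changes called: both genes were below WT in val1 and above it in val1 val2. CHI, F3H and TT7 were likewise below WT in val1 and above it in val1 val2, but their changes in val1 did not pass. The 5 interaction calls held on leaving out each library, except that TT7 could not be fitted without val1 val2 replicate 1 or 2.

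DFR, dihydroflavonol reductase, and LDOX, leucoanthocyanidin dioxygenase, make anthocyanidins and were low in all libraries. The DFR locus lay on chromosome 5 between 17164123 and 17165921, and that of LDOX on chromosome 4 between 12004725 and 12006200. DFR was listed at 0, 0.427 and 0 FPKM in WT, at 0.612, 0 and 0 FPKM in val1, at 2.71, 2.65 and 1.68 FPKM in val2, and at 4.47, 4.75 and 1.88 FPKM in val1 val2. LDOX was listed at 0.664, 0 and 0.562 FPKM in WT, at 0 in all val1 libraries, at 2.66, 3.18 and 3.51 FPKM in val2, and at 2.36, 2.97 and 0.944 FPKM in val1 val2. For both genes every val2 and val1 val2 library lay above every WT and val1 library, and the val2 and val1 val2 libraries overlapped.

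In val2, DFR and LDOX were the 2 genes called higher, against 1.76% of all genes, and TT7 the 1 called lower, against 2.66%. DFR and LDOX entered the test only through val2 and val1 val2, so nothing is read from their count and their calls there are given as a description. Of the 6 genes at 1 FPKM or more in every library with a value, 0 were called higher in val2 and 1, TT7, lower. The log2 change was 1.56 for DFR (SE 0.299, limma adjusted p = 0.0165) and 1.58 for LDOX (SE 0.266, adjusted p = 0.00889), both on the FPKM + 1 scale, which understates changes at such levels. In val1 val2 it was 1.99 for DFR (adjusted p = 0.000214) and 1.11 for LDOX (adjusted p = 0.0044). The DFR call in val2 was lost on leaving out WT replicate 1 or 3 or val2 replicate 1 or 2, with adjusted p from 0.0501 to 0.0755, and the LDOX call in val1 val2 was lost with quantile normalization (0.80, adjusted p = 0.102).

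TT7 in val2 was at 2.8 ± 0.266 FPKM, 0.565 times WT (log2 change -0.64, SE 0.135, limma adjusted p = 0.0285). That call was lost on leaving out WT replicate 2 or 3 or any val2 library, with adjusted p from 0.056 to 0.117, and without the 4 libraries with an unbroken locus (-0.60, adjusted p = 0.0533). Among the other genes tested, the val2 changes were -0.15 for CHI (95% interval -0.77 to 0.46), -0.29 for F3H (-0.77 to 0.20) and -0.18 for FLS1 (-0.74 to 0.37), and did not pass. Of the organ markers, 2 of 5 root markers were called lower in val2, against 2.66% of all genes tested. Of 6 embryo or mature seed markers, 3 were called higher in val1 and in val2, with sums of 41 to 43.1 FPKM and of 6.85 to 7.32 FPKM. All 6 were at 0 in WT and passed the filter only through mutant libraries, so nothing is read from that count. The part of the organ markers in the single mutant results was not tested.

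Between val1 val2 and val2, DFR differed by 0.44 (95% interval -0.22 to 1.1, limma adjusted p = 0.23) and LDOX by -0.47 (-1.06 to 0.12, adjusted p = 0.15), so neither passed. Without val1 val2 replicate 3 the DFR difference was 0.76 and passed (adjusted p = 0.0316), as it did without the 2 libraries with an unbroken VAL1 locus (0.76, adjusted p = 0.0146). Their interaction terms of 0.38 (DFR) and -0.01 (LDOX) did not pass, although that of DFR did without those 2 libraries (0.93, adjusted p = 0.0344).

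Within a library, FPKM can be set against each other per length, which shows the balance of the pathway in each genotype. F3H was at 14.2% to 17.3% of CHS in WT, at 30.7% to 39.5% in val1, at 10.7% to 12.2% in val2 and at 58.5% to 73.6% in val1 val2. No 2 genotypes overlapped in this ratio. FLS1 was at 121% to 139% of F3H in WT and at 37.5% to 45.6% in val1 val2, so that F3H exceeded FLS1 in each double mutant library and FLS1 exceeded F3H in each WT library. In val1 the ratio was also below WT, at 78% to 104%, and F3H exceeded FLS1 in val1 replicates 1 and 2. In val2 it was at 117% to 166%. TT7 was at 38.2% to 58.8% of F3H in WT and at 57% and 65.6% in the val1 val2 libraries with a value, and these ranges overlapped.

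The anthocyanidin enzymes were high relative to F3H in val2 and low relative to it in val1 val2. DFR was at 22.9% to 36.4% of F3H in val2 and at 2.3% to 3.47% in val1 val2, and LDOX at 28.2% to 47.6% in val2 and 1.16% to 2.17% in val1 val2. Neither ratio overlapped between the 2 genotypes. In WT, DFR was at 0% to 4.13% and LDOX at 0% to 6.64% of F3H, ranges that include the val1 val2 values. An exact permutation test of 3 against 3 libraries cannot go below a two-sided p of 0.1, so these ratios are given without a call.

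**Figure D3:**
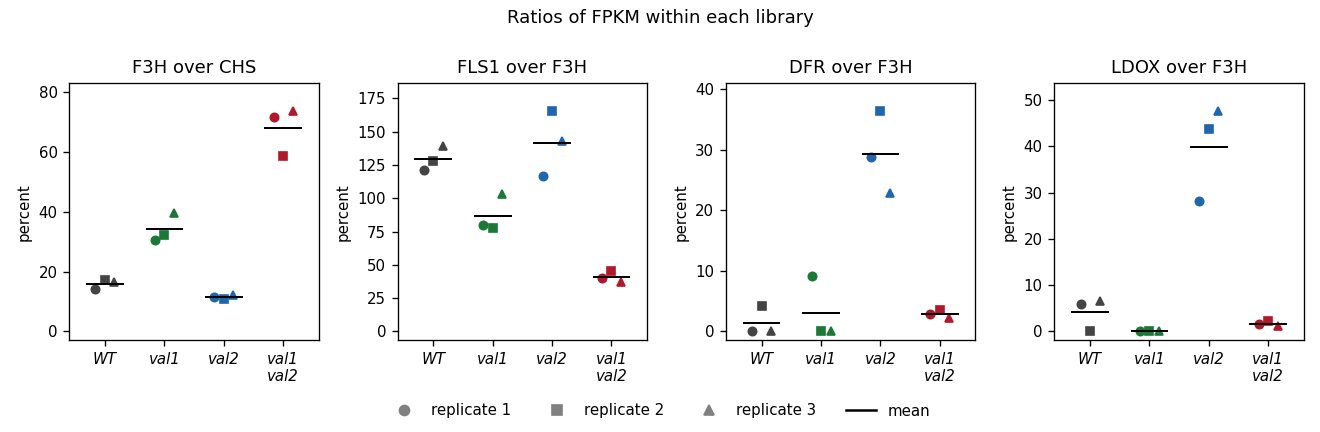
Ratios of FPKM within each library, in percent (vertical axes, linear), for F3H to CHS, FLS1 to F3H, DFR to F3H and LDOX to F3H in the 4 genotypes, with a point for each library and a line for the group mean. F3H to CHS is highest in val1 val2 (58.5% to 73.6%), FLS1 to F3H lowest there (37.5% to 45.6%), and DFR and LDOX to F3H are highest in val2.

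BAN, the anthocyanidin reductase of the seed coat, was listed at 0 in all 12 libraries. TT8 was listed at 0 in all WT libraries, at 0.751, 0 and 0.537 FPKM in val1, at 0.72, 0 and 0.177 FPKM in val2, and at 0.606, 0.657 and 0.647 FPKM in val1 val2. It stayed under 1 FPKM everywhere, the groups other than WT overlapped, and it was not tested. In the fit with no filter on low values its log2 change in val1 val2 against WT was 0.71 (limma adjusted p = 0.0219).

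MYB12, an R2R3-MYB activator of CHS, CHI, F3H and FLS1, had its locus on chromosome 2 between 19476305 and 19479537. It stood at 2.78, 2.13 and 2.18 FPKM in WT, at 2.43, 1.56 and 2.11 FPKM in val1, at 4.02, 2.47 and 2.35 FPKM in val2, and at 7.69, 7.1 and 3.24 FPKM in val1 val2. The val1 val2 libraries lay above all WT libraries, and replicate 3 lay below val2 replicate 1. MYB12 rose in val1 val2 to 6.01 ± 2.42 from 2.36 ± 0.364 FPKM, a 2.54-fold ratio (log2 change 1.00, SE 0.267, limma adjusted p = 0.00821), and its changes of -0.15 in val1 (adjusted p = 0.848) and 0.21 in val2 (adjusted p = 0.766) did not pass. Its rise over val2 (0.79, adjusted p = 0.026) was lost without val2 replicate 2 or 3 or val1 val2 replicate 1 or 2, with adjusted p from 0.0793 to 0.102. That call was also lost with quantile normalization (0.69, limma adjusted p = 0.0817) and when only val2 and val1 val2 were fitted (adjusted p = 0.081). The rise was 1.11 (limma adjusted p = 0.00116) without the 2 libraries with an unbroken VAL1 locus. Without all 4 it was 1.35, with replicate 1 as the only val1 val2 library left. Its interaction term of 0.94 (adjusted p = 0.0633) passed without val2 replicate 1 (1.12, adjusted p = 0.0387), without val1 val2 replicate 3 (1.27, adjusted p = 0.00307) and without the 2 libraries with an unbroken VAL1 locus (1.36, adjusted p = 0.00381).

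Among 20 other regulators of flavonoid genes, 11 were tested, of which 3 rose and 6 fell in val1 val2, against 24.5% higher and 34.4% lower over all genes tested. Their median was -0.29, against -0.14 over all genes. MYB11, the relative of MYB12, was listed at 0 in all 9 libraries of WT, val1 and val2. In val1 val2 it was at 4.12, 3.65 and 2.09 FPKM. It passed the filter through val1 val2 alone, so its call (limma adjusted p = 3.86e-06) is given as a description. Nothing is read from MYB11 in the count of 3. MYB111, the other relative and named here after its values were seen, rose to 10.3 ± 2.84 from 2.52 ± 0.381 FPKM (log2 change 1.66, adjusted p = 0.000233). The third regulator that rose was EGL3, a bHLH relative of TT8 also named after its values were seen (0.49, limma adjusted p = 0.0176). That call was lost without WT replicate 2 (adjusted p = 0.0637) and with quantile normalization (0.33, adjusted p = 0.0652). The EGL3 change was 0.43 without the 4 libraries with an unbroken locus, with replicate 1 as the only val1 val2 library left.

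The regulators that fell are known as repressors for the most part, but repressors also made up much of the list tested. The part of these falls in the flavonoid results was not tested. MYBL2, a repressor of anthocyanin genes, was at 7.21, 10.3 and 14.4 FPKM in WT and at 1.2, 0 and 2.8 FPKM in val1 val2 (log2 change -2.47, limma adjusted p = 0.000315), and at 21.4 to 22.7 FPKM in val1, where its change did not pass (adjusted p = 0.21). LBD37, LBD38 and LBD39, which repress anthocyanin regulators in response to nitrogen, fell in val1 val2 to 6.17 from 112 FPKM (-4.12), to 12.6 from 69.8 FPKM (-2.49) and to 18.6 from 68 FPKM (-1.89). KFB-CHS, an F-box protein that directs the breakdown of the CHS enzyme, fell to 10.2 ± 4.41 from 61.1 ± 9.97 FPKM (-2.53, adjusted p = 8.56e-06). The sixth that fell was TTG1, the WD40 protein of the activating complexes and named after its values were seen (-0.29, adjusted p = 0.0132), a call lost with median ratio scaling (-0.11, adjusted p = 0.293).

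KFB-CHS was also the 1 regulator of the 11 called by limma in a single mutant, as higher in val2, against 1.76% of all genes. In val1 none was called, against 2.18% higher and 1.71% lower over all genes, with 4 at an unadjusted p under 0.05. In val2 KFB-CHS rose to 152 ± 16.5 FPKM, with 171, 145 and 140 FPKM in the libraries (log2 change 1.31, limma adjusted p = 0.0134), above every WT library. Leaving out WT replicate 1, WT replicate 2 or val2 replicate 1 ended that call, with adjusted p from 0.0554 to 0.0642. In val1 it stood at 105 ± 16 FPKM, with a change of 0.78 that did not pass (adjusted p = 0.117).

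**Figure D4:**
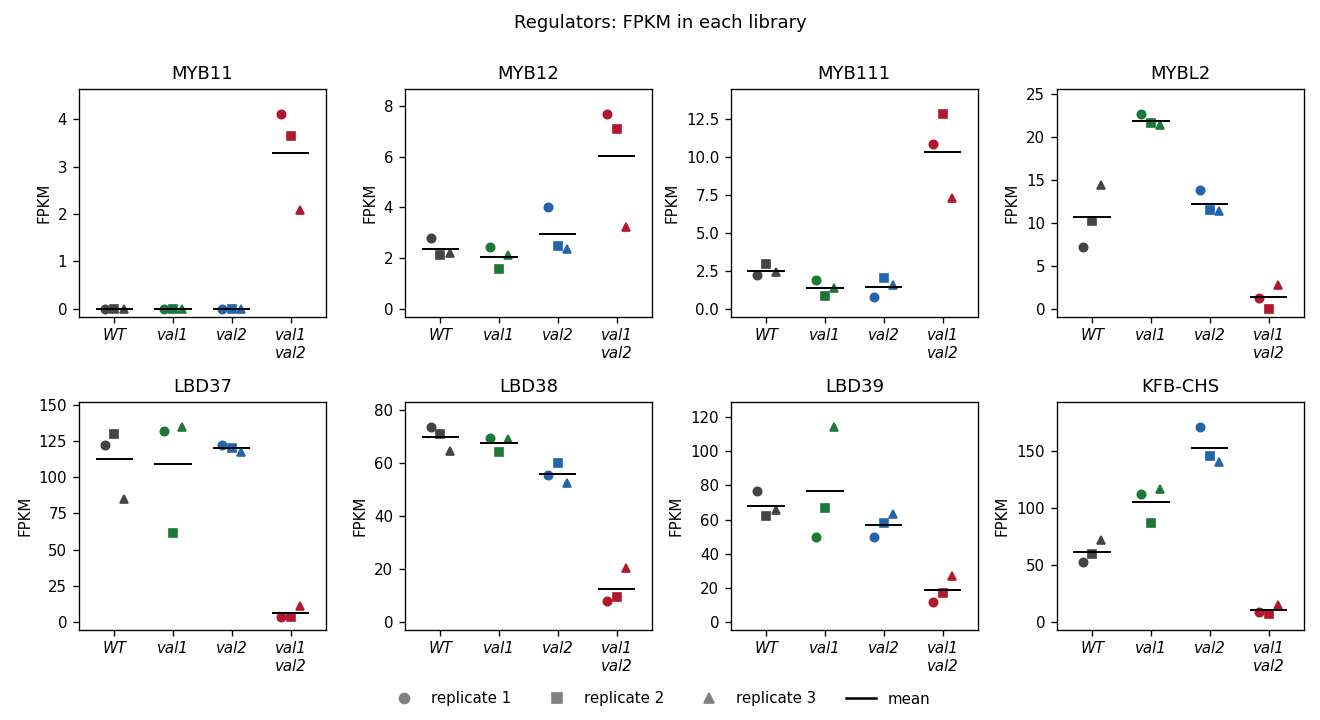
FPKM (vertical axes, linear, a scale for each gene) of 8 regulators in the 3 libraries of each genotype, with a point for each library and a line for the group mean. MYB11, MYB12 and MYB111 are highest in val1 val2 (MYB11 at 2.09 to 4.12 FPKM and at 0 elsewhere), while MYBL2, LBD37, LBD38, LBD39 and KFB-CHS are lowest there, and KFB-CHS is highest in val2.

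The anthocyanin MYB genes were below the filter and not tested. PAP2 was listed at 6.52, 5.18 and 0 FPKM in val1 val2 and PAP1 at 0, 0.944 and 0 FPKM, both at 0 in the other 9 libraries. In the fit with no filter the log2 change of PAP2 in val1 val2 against WT was 1.85 (limma adjusted p = 0.0189), with replicate 3 at 0. MYB113 and MYB114 were listed at 0 in all 12 libraries. These 4 genes are close copies, so the assembly could have shared reads between them. The seed coat regulators TT2, TT1 and TT16 and the transporter TT12 were also listed at 0 in all 12 libraries.

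Upstream of CHS, 7 of 8 general phenylpropanoid enzymes were tested, of which 6 rose and 1 fell in val1 val2, against 24.5% higher and 34.4% lower over all genes tested. Their median was 0.97. PAL1, a phenylalanine ammonia-lyase that opens the pathway, rose to 168 ± 13.3 from 34.6 ± 1.06 FPKM (log2 change 2.24, limma adjusted p = 5.1e-08), and C4H, cinnamate 4-hydroxylase, to 187 ± 30.5 from 77.8 ± 3.69 FPKM (1.25). The other lyase genes PAL2 (0.97) and PAL4 (1.24, n = 2) and the coumarate ligase gene 4CL3 (0.69) were among the 6 that rose. PAL3 fell to 2.07 ± 1.67 from 7.09 ± 0.907 FPKM (-1.52, adjusted p = 0.000823). In val1 none of the 7 was called by limma, with 1 at an unadjusted p under 0.05 and a median of -0.07. Over all genes, 2.18% were called higher there and 1.71% lower. In val2 only PAL4 was called, as higher, against 1.76% of all genes (0.59, limma adjusted p = 0.0486). Each of the 9 libraries with a PAL4 value that can be left out ended that call, with adjusted p from 0.0519 to 0.175. Val1 val2 replicate 1 has no PAL4 value, so leaving it out did not change the values.

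Downstream, 11 of 17 other flavonoid enzymes and transport genes were tested, of which 6 rose and 3 fell in val1 val2. Over all genes tested 24.5% were called higher and 34.4% lower, and the median of the 11 was 0.73. The 6 include TT19, which passed the filter through val2 and val1 val2 alone, so nothing is read from it in that count. The flavonol glycosyltransferase genes UGT78D1 and UGT78D2 rose to 60.7 ± 21.5 from 16.1 ± 3.15 FPKM (log2 change 1.80, limma adjusted p = 9.08e-05) and to 28.9 ± 2.09 from 10.4 ± 0.765 FPKM (1.39, adjusted p = 4.19e-06). The methyltransferase gene OMT1 (1.03) and SAT, a sinapoyltransferase gene of anthocyanin decoration (1.03), also rose, and UGT73C6, another flavonol glycosyltransferase gene, fell (-1.90). The SAT call was lost without WT replicate 3 or val1 val2 replicate 1 or 2, with limma adjusted p from 0.0535 to 0.072. It was also lost with a pseudocount of 0.1 (adjusted p = 0.0725). The SAT change was 1.13 without the 4 libraries with an unbroken locus, with replicate 1 as the only val1 val2 library left.

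TT19, a glutathione transferase needed to move anthocyanins to the vacuole, was listed at 0 in all WT and val1 libraries, at 2.22, 1.77 and 1.76 FPKM in val2 and at 5.22, 3.59 and 2.01 FPKM in val1 val2. It passed the filter through val2 and val1 val2 alone, so its calls there (limma adjusted p = 0.00343 and 1.41e-05) are given as a description. UGT75C1, an anthocyanin glucosyltransferase gene below the filter and named after its values were seen, was listed at 0, 2.19 and 1.9 FPKM in val2 and at 0 in all val1 val2 libraries.

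In val1, 2 further genes of the 11 tested in this list were called lower and none higher. Over all genes tested, 1.71% were called lower and 2.18% higher. UGT89C1, a flavonol rhamnosyltransferase gene, was at 10.3, 6.63 and 10.2 FPKM in val1 and at 19.7, 19.1 and 17.9 FPKM in WT (log2 change -1.01, limma adjusted p = 0.0194), and it rose in val1 val2 (0.73, adjusted p = 0.00943). CHIL, a chalcone isomerase-like protein that assists CHS, was at 11.8, 7.87 and 7.84 FPKM in val1 and at 18.5, 16.7 and 15.8 FPKM in WT (-0.84, adjusted p = 0.0342). The UGT89C1 call was lost without WT replicate 1 or 2 or val1 replicate 2, with adjusted p from 0.0676 to 0.0788. The CHIL call was lost without any of 6 libraries, WT replicates 1, 2 and 3, val1 replicates 2 and 3 and val2 replicate 2, with adjusted p from 0.0561 to 0.127.

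**Figure D5:**
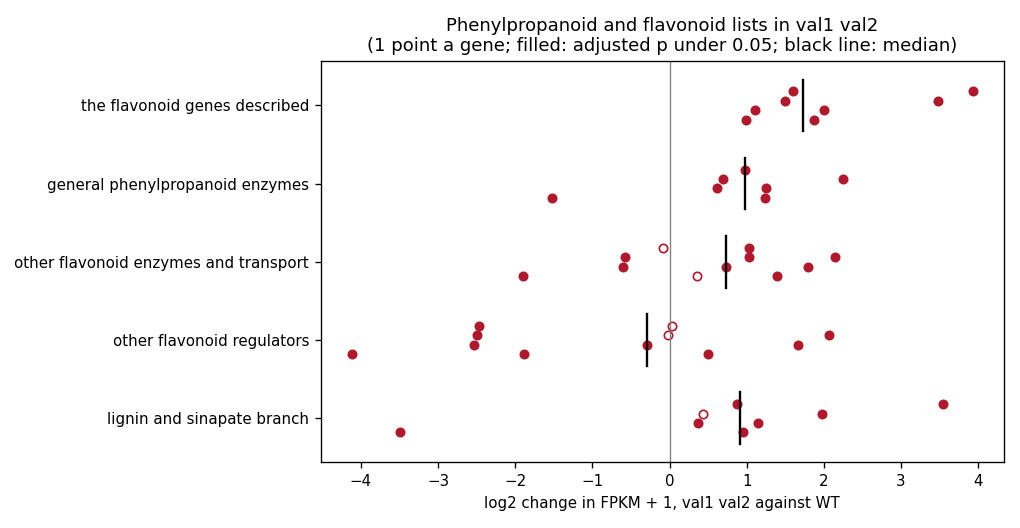
log2 change in FPKM + 1 in val1 val2 against WT (horizontal axis) of the genes tested in 5 lists, with a point for each gene, filled for an adjusted p under 0.05, and a black line for the median. The medians are 1.73 for the flavonoid genes described, 0.97 for the general phenylpropanoid enzymes, 0.73 for other flavonoid enzymes and transport, -0.29 for other regulators and 0.91 for the lignin and sinapate branch, against -0.14 over all genes tested. DFR, LDOX and TT19 passed the filter through val2 and val1 val2 alone, and MYB11 through val1 val2 alone.

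The lignin and sinapate branch, which shares the phenylpropanoid precursors, had 8 of 9 genes tested, of which 6 rose and 1 fell in val1 val2, where 24.5% of all genes were called higher and 34.4% lower. The median of the 8 was 0.91. UGT84A2, which makes sinapoylglucose, rose to 137 ± 32.8 from 10.6 ± 0.682 FPKM (log2 change 3.54, limma adjusted p = 3.33e-08), and FAH1, ferulate 5-hydroxylase, to 76.7 ± 12.4 from 18.6 ± 0.83 FPKM (1.98). SNG1, which makes sinapoylmalate, the sinapate ester of leaves, fell to 14.1 ± 13 from 133 ± 12.7 FPKM (-3.50, adjusted p = 7.18e-05). The lignin genes CCoAOMT1 (1.15), CAD5 (0.94) and C3H1 (0.87) rose as well. In val1 and val2 no gene of this list was called by limma, with 0 in val1 and 1 in val2 at an unadjusted p under 0.05, and the medians were 0.01 and -0.10. Over all genes, 2.18% were called higher and 1.71% lower in val1, and 1.76% and 2.66% in val2.

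The pattern of CHS over the 12 libraries was closest, by Pearson correlation of log2(FPKM + 1) among 12106 genes, to that of UGT89C1 (AT1G06000, r = 0.972), GBF6 (0.970), EXPA10 (0.966), AT1G33265 (0.961) and AT3G25290 (0.960). Of these, GBF6 was at 14 ± 1.56 FPKM in WT, 8.69 ± 0.644 in val1, 14.4 ± 0.613 in val2 and 21.2 ± 5.5 in val1 val2. The val1 val2 libraries stand apart from the rest, and over the other 9 libraries none of these 5 genes was among the 5 closest. Among the flavonoid genes, CHS was closest to FLS1, with r = 0.940 over 12 libraries and 0.923 over the 9, and for CHS and TT7 the values were 0.704 over 11 libraries and -0.352 over the 9. All these points share their libraries and the scaling to library totals.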

How the data were processed

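The authors deposited FPKM for the assembled loci of each of 12 libraries, computed with Cufflinks, per the file headers. Cufflinks 2.2.1, TopHat2 2.1.1, MACS2, Cuffdiff and the build TAIR10 appear in the submitters' processing notes without their roles. Strand use and read counts are not given in the sources used here. Groups and replicate numbers follow the sample titles, with which the names of 2 val1 files disagree.

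The files name no genes. Loci were assigned by position to 27444 protein-coding genes of RefSeq's TAIR10.1 table, and the median locus began 70 bases inside and ended 74 bases inside its gene. For each gene, the FPKM of its loci were weighted by the share of the gene that each covered and summed. Values were set to missing for genes under 75% of a locus that took in 50% or more of more than 1 gene (4003 genes in any library), and for genes without a locus in 1 library but at 10 FPKM or more in both other replicates (200 values). Other genes with no locus are listed at 0.

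limma 3.58.1 (R 4.3.3) was fitted to log2(FPKM + 1) with 4 group means over 17881 genes at 1 FPKM or more in at least 3 libraries and with at least 2 values a group. P-values are two-sided and Benjamini-Hochberg adjusted over all genes tested, with a threshold of 0.05. The fit was tested on simulated data. Summaries used Python 3.11.15 with numpy 2.4.6 and pandas 2.3.3, and figures matplotlib 3.10.9.

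The 10 genes, the 4 other lists (54 genes) and the markers were chosen with earlier results of these data known. Of the other lists, the genes named are those called against WT, up to the 6 with the largest change per list and comparison, and those at 0 in all libraries. Promoter and protein sequences were not analysed here. The 25 alternatives covered pseudocounts, filters, locus rules, scaling, weights, the replicate block and left-out libraries.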

Additional observations from a re-analysis of the deposited data

Results flagged for a closer look

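For 5 enzymes, the difference between val1 and WT was not the same as that between val1 val2 and val2, by the limma interaction test. The interaction was 3.10 log2 units for CHS, 2.31 for CHI, 4.39 for F3H, 4.74 for TT7 and 3.20 for FLS1, each with a positive sign and an adjusted p under the threshold. For all 5 the 2 differences had opposite signs, but only for CHS and FLS1 were both called. The val1 changes of CHI (-0.56), F3H (-0.63) and TT7 (-0.17) did not pass. For CHS, FLS1, CHI and F3H the 3 val1 libraries lay below all WT libraries, and the 3 val1 val2 libraries lay above all val2 libraries. For TT7 the val1 and WT libraries overlapped.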

How the results depend on the processing

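In val1 the count of 2 flavonoid genes called fell to 1 with a pseudocount of 5 and with the replicate block, and ran from 1 to 3 on leaving out a library. In val2 the count of 3 fell to 1 with a filter of 5 FPKM and ran from 1 to 3. In val1 val2 the count of 8 against WT and against val1 fell to 5 with that filter, because fewer of the genes were tested, and ran from 7 to 8. The FLS1 call in val1 was lost with a pseudocount of 5 (adjusted p = 0.0714), and the TT7 call in val2 with a pseudocount of 5 (0.0903) and the largest locus alone (0.0731). Over all genes, the counts ran from 376 to 1874 in val1 (695 as reported), from 307 to 2296 in val2 (790) and from 8483 to 11767 in val1 val2 (10521). The genes closest to CHS shared 0 of 5 over 9 libraries and 3 of 5 at a mean of at least 1 FPKM.

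Changes near 0 turned in sign, and the cause was not tested. For DFR in val1 (0.06) the value ran from -0.17 to 0.23 on leaving out a library and was -0.03 without WT replicate 1 or 3 and -0.17 without val1 replicate 1 and without the 2 or the 4 libraries with an unbroken locus. The LDOX interaction (-0.01) was 1.2 with a pseudocount of 0.1, 0.14 with the largest locus, 0.12 with median ratio scaling, 0.32 with weights per library, 0.29 without the 2 and 0.089 without the 4 libraries, and ran from -0.22 to 0.29 on leaving out a library, above 0 without WT replicate 2, val2 replicate 2 or 3 or val1 val2 replicate 3.

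Over 16274 genes, deviations of same-numbered libraries correlated at -0.0419 to 0.0624 over 18 pairs, and those of other numbers at -0.0748 to 0.0815. Of the 12 libraries, 6 correlated best with their own number. CHS followed the replicate order in WT, val1 and val2, highest in replicate 1 and lowest in replicate 3. The SE of its change in val1 was 0.184 with a block for replicate number, against 0.272 without it. Whether the numbers pair the libraries is therefore left undecided. With the replicate block, the adjusted p was 0.0532 for FLS1 in val1 and 0.0675 for TT7 in val2, and the MYB12 interaction was called (0.0349). The unknown depth limits what the values near 0 can show.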
